A study of Mus musculus with 8 samples.

Results

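Mitogen-activated protein (MAP) kinase cascade genes encode the kinases that pass a signal from the cell membrane to the nucleus. They were taken here as the protein-coding genes whose symbols are Map2k, Map3k, Map4k or Mapk followed by a number. Of the 21775 protein-coding genes used, 43 met this rule: 5 MAP4K, 18 MAP3K, 7 MAP2K and 13 MAPK genes. Smad4 is the common partner of the receptor-activated SMADs, and its binding was measured by ChIP-seq, in which DNA fragments bound by a protein are immunoprecipitated and sequenced. The cells were activated CD4+ T cells of C57BL/6 mice, taken from lymph nodes and spleen. There were 2 knockout (KO) libraries of genotype CD4cre;Smad4fl/fl and 2 wild-type (WT) libraries. In KO animals a Cre recombinase driven from Cd4, and therefore active in T cells, acts on floxed Smad4 alleles; the peak lists do not measure the deletion itself. Cells of both genotypes had been kept for 12 h with IL6 and a TGFbR inhibitor, so no library shows cells without these agents. KO replicate 1 was a pool of both sexes, KO replicate 2 was male and both WT libraries were female, so sex and genotype cannot be told apart. Separate animals are not named for the replicates, so comparisons of libraries measure only the spread between these samples, which may be technical.

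The cascade is a chain of kinases in which each tier phosphorylates the next. MAP4Ks, kinases of the STE20 family, act on MAP3Ks, which phosphorylate MAP2Ks, and MAP2Ks phosphorylate the MAPKs, whose branches are ERK, JNK, p38 and ERK5. In T cells the chain runs downstream of the antigen receptor, of costimulatory and cytokine receptors and, through the MAP3K TAK1, of TGF-β receptors, and it ends on transcription factors such as AP-1. AP-1 proteins and SMADs are known to bind DNA together at many sites.

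The Smad4 ChIP gave peaks at most of these genes in WT libraries and at 1 of them in a KO library (2.42% of all protein-coding genes had a KO region). A WT-only region, which joins overlapping peaks of both WT libraries and meets no KO peak, lay in the territory (the gene and 10 kb on both sides) of 31 of 43 members, or 72.1% (exact 95% interval 56.3% to 84.7%). Of all protein-coding genes 44.3% had one. The share depended on gene length, from 9.92% in the shortest of 10 length groups to 58.6% in the group next to the longest. Protein-coding genes of the members' own length groups had a region in 50.7% of cases, which would be 21.8 of 43 genes. All 5 MAP4K genes and all 7 MAP2K genes had a WT-only region, as did 11 of 18 MAP3K genes (61.1%) and 8 of 13 MAPK genes (61.5%). The matching shares in the members' length groups were 50.2% for MAP4K, 50.7% for MAP2K, 52.8% for MAP3K and 48.0% for MAPK. Intervals cover counting error only and treat genes as independent. Since the genes were chosen by name with earlier results of these data known, the shares are a description, and differences between tiers were not tested.

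**Figure D1:**
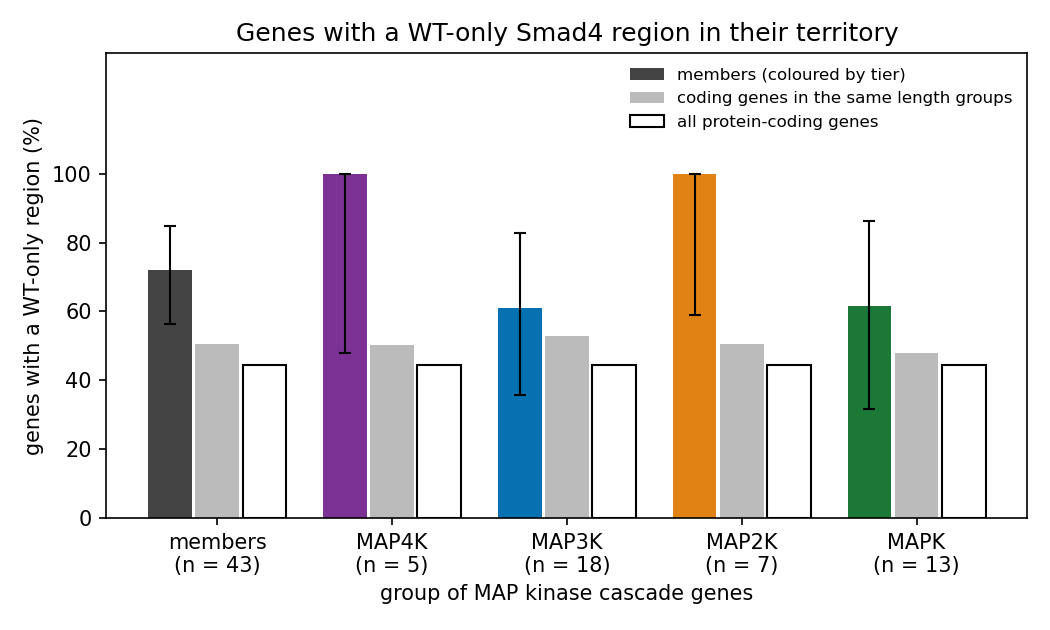
Share of genes with a WT-only Smad4 region (y axis, %) for all 43 MAP kinase cascade genes and for each tier (x axis), as coloured bars with exact 95% binomial intervals. Grey bars give protein-coding genes of the same length groups and white bars all protein-coding genes (44.3%); the MAP4K and MAP2K bars reach 100%, and the MAP3K and MAPK bars 61.1% and 61.5%.

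KO replicates 1 and 2 had 0 and 1 peaks in the 43 territories, against 121 in WT replicate 1 and 97 in WT replicate 2. The mean was 0.50 ± 0.71 peaks in KO and 109 ± 17.0 peaks in WT (SD, n = 2 each), and both KO values lay below both WT values. By gene, KO replicate 1 had a peak at 0 of the 43 members and KO replicate 2 at 1, compared with 34 in WT replicate 1 and 33 in WT replicate 2; of all protein-coding genes, 1.87% had one in KO replicate 1, 1.16% in KO replicate 2, 53.5% in WT replicate 1 and 48.5% in WT replicate 2. The KO counts of 0 and 1 are near what these small shares give for 43 genes. The difference of mean log10(peaks + 1), KO minus WT, was -1.89 (2-sided exact permutation test, p = 0.333, the smallest that 2 against 2 allows). The whole lists differed in the same direction, with 564 and 424 peaks in KO replicates 1 and 2 and 27120 and 19792 peaks in WT replicates 1 and 2. As a share of its own list, KO replicate 1 had 0 of 564 peaks at these genes, which allows up to 0.532% by the limit of 3 counts (exact upper bound 0.652%), and KO replicate 2 had 0.236% (interval 0.00597% to 1.31%). WT replicate 1 had 0.446% (0.370% to 0.533%) and WT replicate 2 had 0.490% (0.398% to 0.598%). These shares overlap in their intervals, so fewer peaks at the cascade in KO were not distinguishable from the shorter KO lists. Read depth was unknown.

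Promoters are shown for a gene of each tier with a WT-only region there, for Map3k7, the TGF-β-activated kinase, and for the neighbouring p38 genes Mapk14 and Mapk13, of which Mapk14 had peaks and Mapk13 had none. Each is 250 bases before to 50 bases after an annotated start (RefSeq, GRCm38.p6, the assembly of mm10), written 5′ to 3′ along the gene's strand. Capitals mark any match on either strand to 8 motifs: CAGAC and GTCTAGAC (SMAD boxes), GGCGCC (a GC-rich SMAD element), TGANTCA (AP-1), TGACGTCA (CRE), TTCNNNGAA (STAT), CCGGAAGT (ETS) and the consensus κB site of NF-κB.
Map4k5: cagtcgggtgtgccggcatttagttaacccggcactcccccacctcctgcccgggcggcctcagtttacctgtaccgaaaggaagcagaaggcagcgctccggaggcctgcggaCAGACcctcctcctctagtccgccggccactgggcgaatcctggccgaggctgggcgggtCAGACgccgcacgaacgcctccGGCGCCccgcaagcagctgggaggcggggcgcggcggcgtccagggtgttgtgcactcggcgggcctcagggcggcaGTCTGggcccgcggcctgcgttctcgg
Map3k1: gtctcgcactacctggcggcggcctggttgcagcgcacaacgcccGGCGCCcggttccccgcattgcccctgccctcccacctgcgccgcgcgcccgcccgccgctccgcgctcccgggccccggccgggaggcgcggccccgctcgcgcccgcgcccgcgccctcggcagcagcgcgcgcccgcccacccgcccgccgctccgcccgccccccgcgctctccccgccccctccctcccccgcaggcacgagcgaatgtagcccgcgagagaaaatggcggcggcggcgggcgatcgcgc
Map3k7: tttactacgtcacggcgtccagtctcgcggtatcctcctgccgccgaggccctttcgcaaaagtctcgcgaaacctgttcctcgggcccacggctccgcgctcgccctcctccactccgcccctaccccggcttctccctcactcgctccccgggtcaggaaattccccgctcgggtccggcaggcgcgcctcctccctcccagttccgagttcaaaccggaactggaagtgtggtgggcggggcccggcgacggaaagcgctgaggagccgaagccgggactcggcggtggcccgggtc
Map2k7: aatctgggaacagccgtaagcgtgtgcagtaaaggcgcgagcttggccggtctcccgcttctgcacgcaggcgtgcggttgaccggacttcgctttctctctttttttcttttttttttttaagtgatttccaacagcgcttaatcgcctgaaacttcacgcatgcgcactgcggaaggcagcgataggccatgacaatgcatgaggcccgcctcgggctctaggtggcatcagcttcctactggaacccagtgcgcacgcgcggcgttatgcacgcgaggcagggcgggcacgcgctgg
Mapk14: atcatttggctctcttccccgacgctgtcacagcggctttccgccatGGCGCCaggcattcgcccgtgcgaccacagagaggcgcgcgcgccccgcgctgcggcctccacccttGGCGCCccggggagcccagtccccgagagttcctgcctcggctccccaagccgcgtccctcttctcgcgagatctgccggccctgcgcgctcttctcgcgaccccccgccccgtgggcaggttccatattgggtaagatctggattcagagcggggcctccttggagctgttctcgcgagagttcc
Mapk13: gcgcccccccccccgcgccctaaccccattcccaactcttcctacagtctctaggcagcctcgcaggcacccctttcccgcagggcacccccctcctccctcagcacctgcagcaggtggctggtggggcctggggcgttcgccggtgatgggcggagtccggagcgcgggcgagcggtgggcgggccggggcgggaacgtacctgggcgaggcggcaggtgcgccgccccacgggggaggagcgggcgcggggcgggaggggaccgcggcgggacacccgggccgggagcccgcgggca
Their positions are chr12:69893114-69893413 (minus strand) for Map4k5, chr13:111808944-111809243 (minus) for Map3k1, chr4:31963857-31964156 (plus) for Map3k7, chr8:4238490-4238789 (plus) for Map2k7, chr17:28691092-28691391 (plus) for Mapk14 and chr17:28769067-28769366 (plus) for Mapk13. The Map4k5 window held 3 matches to CAGAC and 1 to GGCGCC, Map3k1 held 1 to GGCGCC and Mapk14 held 2 to GGCGCC. The windows of Map3k7 and Map2k7 met a WT-only region and matched none of the 8 motifs, and that of Mapk13 met no region and matched none either. A match is a run of letters and not a measured binding site.

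Over the 46 promoter windows of 34 members with an entry, 18 (39.1%) held CAGAC, against 48.4% of all 21262 protein-coding windows. GGCGCC stood in 11 (23.9%), against 15.3% of all windows. Of the 22 member windows that met a WT-only region 10 held GGCGCC, and of the 24 that met none 1 did. That window, of Map4k2, overlapped a peak of WT replicate 2 alone. Over all windows these shares were 25.8% of the 5707 that met a WT-only region and 11.5% of the others. Windows that met a WT-only region were also richer in G and C. Their median was 68.3% in members, against 60% in member windows that met none. The part of base composition in the GGCGCC counts was not tested. TGANTCA stood in 3 member windows (6.52%, against 6.99% of all), none of which met a WT-only region. Over all windows it stood in 4.03% of those that met a WT-only region and 8.07% of the others. TTCNNNGAA and CCGGAAGT stood in 2 each (4.35%, against 7.69% and 5.15% of all) and TGACGTCA in 1 (2.17%, against 2.23%). CAGAC stood in 10 of the 22 windows with a WT-only region and 8 of the 24 without. Over all windows these shares were 47.0% and 48.9%. For CCGGAAGT the counts were 0 of 22 and 2 of 24, against 11.4% and 2.85% over all windows. The Map3k11 window held both CAGAC and CCGGAAGT and is counted as without a WT-only region. It overlapped a peak of WT replicate 2 alone. For TTCNNNGAA the counts were 2 and 0 (6.27% and 8.22%), and for TGACGTCA 0 and 1 (4.12% and 1.54%). GTCTAGAC and the κB site stood in none, and in 0.226% and 0.160% of all windows. Several genes have windows that overlap, so windows are not independent. Genes without an entry included Mapk3, Mapk4, Mapk15, Map4k4, Map3k2, Map3k8, Map3k15 and Map3k19.

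At these genes 5′ ends were called more often than 3′ ends. Among the 34 members with a strand, 20 (58.8%) had a WT-only region within 1 kb of the 5′ end, against 28.3% of 17491 protein-coding genes with a strand. At the 3′ end 1 member did (2.94%, against 3.18%), and that was Mapk12, which encodes p38γ. With promoter windows in place of the 1 kb rule, 19 of 34 members (55.9%) had a WT-only region on a window, against 28.1% of protein-coding genes with one. Over all 43 members, without regard to strand, 26 (60.5%) had a WT-only region within 1 kb of a gene end, against 29.4% of all genes and 32.8% of genes in the same length groups. Of the 78 regions in the territories with peaks of both WT libraries, 77 met no KO peak and were WT-only, against 15882 of 16501 over the whole series. Of these 77 WT-only regions, 61 met a member's body and 16 lay in the flanks only. By gene, 28 of 43 members (65.1%) had a region inside the gene, against 34.8% of all protein-coding genes and 42.7% of genes in the same length groups. Of the 55 regions of members with an annotated start, 22 had their centre within 1 kb of a start, 17 at 1 to 10 kb and 16 farther away. The centre lay downstream of the nearest start in 39 and upstream in 16, and the territories themselves reach farther downstream than upstream. These splits of regions by body, flank and distance are given for members only, so they show no trait particular to these genes.

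**Figure D2:**
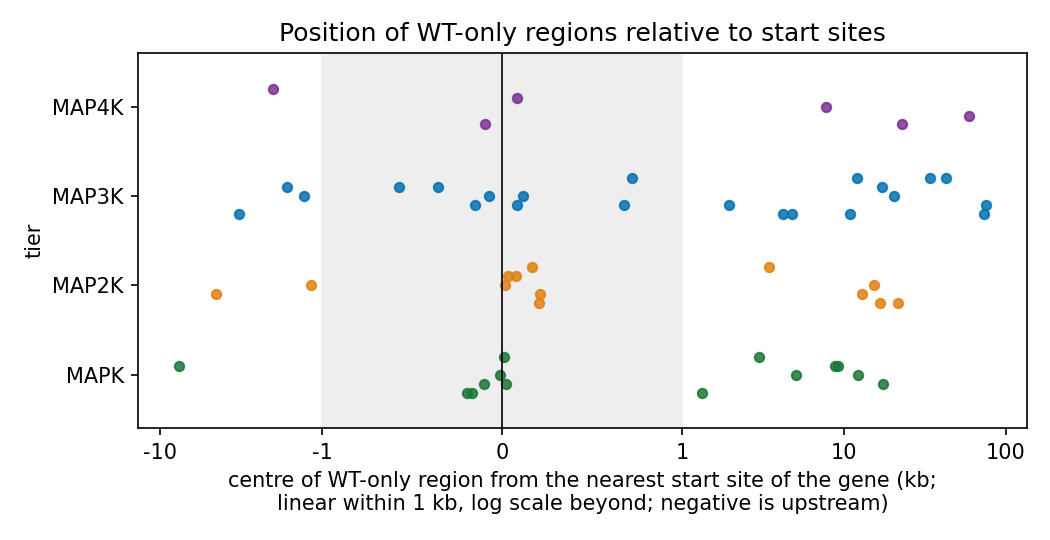
Centres of the 55 WT-only regions of members with an annotated start site, as distance from the nearest start site of that gene (x axis, kb; linear within 1 kb and logarithmic beyond, negative upstream), by tier (y axis). The grey band marks 1 kb on both sides and holds 22 of the 55 points; the points beyond it extend mainly downstream.

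Among the MAP4K genes, Map4k4, which encodes the kinase HGK, stood apart in number. It had 0 and 0 peaks in KO replicates 1 and 2, against 18 and 16 in WT replicates 1 and 2, and these gave 12 WT-only regions, the most of any member. The next highest member had 5. Of the 12 regions 10 met the gene (chromosome 1, 39900902 to 40026310), and 1 region lay over its start coordinate (39900160 to 39901421), where the peaks measured 1262 and 460 bp in WT replicate 1 and WT replicate 2. Its widest region summed to 1722 bp over both WT libraries, so the count came from many regions of moderate size. Per 100 kb of territory Map4k4 had 8.25 regions, behind Mapk12 with 12.9 and Map2k3 with 9.81, and the median was 1.68 over members and 0 over all protein-coding genes.

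Map4k5, which encodes the kinase KHS, had 0 and 0 KO peaks and 4 and 3 WT peaks. Its widest region covered the promoter printed above (chromosome 12, 69892528 to 69893631; 1096 and 1074 bp in WT replicates 1 and 2) and also met Atl1, which starts beside it. Map4k1 encodes HPK1, a kinase that limits T cell receptor signalling. It had 0 and 0 KO peaks and 2 and 1 WT peaks, and its only WT-only region was narrow (chromosome 7, 28981765 to 28982145; 240 and 380 bp) and met Eif3k as well. Map4k3, whose product GLK acts downstream of the T cell receptor, had 1 WT-only region 0.977 kb from the gene, with peaks of 376 and 242 bp. For Map4k2 the only WT-only region lay 7.69 kb away and met Sf1 (chromosome 19, 6363311 to 6364628, with peaks of 1318 and 1260 bp). WT replicate 2 alone had 2 peaks at the start of Map4k2, of 306 and 242 bp, which the rule of both libraries leaves out. The call of all 5 MAP4K genes therefore includes 1 gene whose reproducible region met a neighbour and not the gene itself.

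Within the MAP3K tier the counts are given by subfamily, without a test between subfamilies. All 4 MEKK genes (Map3k1, Map3k2, Map3k3 and Map3k4) had WT-only regions, with 5, 4, 4 and 3 regions and no KO peak; of genes in their length groups 58.6% had one. So did the 3 genes of TAK1, TPL2 and NIK (Map3k7, Map3k8 and Map3k14), kinases that also feed into NF-κB signalling, against 54.0% of genes in their length groups. None of the 4 mixed lineage kinase genes (Map3k9, Map3k10, Map3k11 and Map3k21) had one, against 52.5% in their length groups. Of the 3 ASK genes 1, Map3k5, had one, against 48.1% in their length groups, and Map3k6 and Map3k15 had no peak in any library. With 3 or 4 genes each, these counts bound the shares only loosely.

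Map3k1, which encodes MEKK1, held the widest WT-only region of all members by summed width (chromosome 13, 111807063 to 111809569). Its peaks there covered 1736 bp in WT replicate 1 and 2464 bp in WT replicate 2, with none in either KO library. By gene bounds this region was internal, and by start sites it lay on the only annotated promoter window, printed above. A second broad region followed inside the gene (111796235 to 111797483; 1160 and 924 bp). In all Map3k1 had 0 and 0 KO peaks and 6 and 7 WT peaks, on a gene of 71.8 kb.

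Map3k20, which encodes the stress kinase ZAK, held the next widest region (chromosome 2, 72281489 to 72283312; 1824 and 1658 bp). It lay 2.33 kb upstream of the gene, and a far narrower one (306 and 242 bp) lay on the promoter. Map3k3, which encodes MEKK3, had 0 and 0 KO peaks and 9 and 5 WT peaks. Its widest region (chromosome 11, 106159191 to 106161350; 1400 and 1848 bp) lay 2.54 kb past the gene's 3′ end and met Limd2 and Gm10840, whereas the regions on both sides of its own start were narrower, with 702 and 428 bp at most. Map3k5, which encodes the stress kinase ASK1, had 0 and 0 KO peaks and 7 and 4 WT peaks, of which its promoter region was reproducible and wide (chromosome 10, 19933517 to 19934826; 1276 and 1310 bp). A second, narrow region lay in the gene, and 5 of the 7 peaks in WT replicate 1 fell in no reproducible region.

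**Figure D3:**
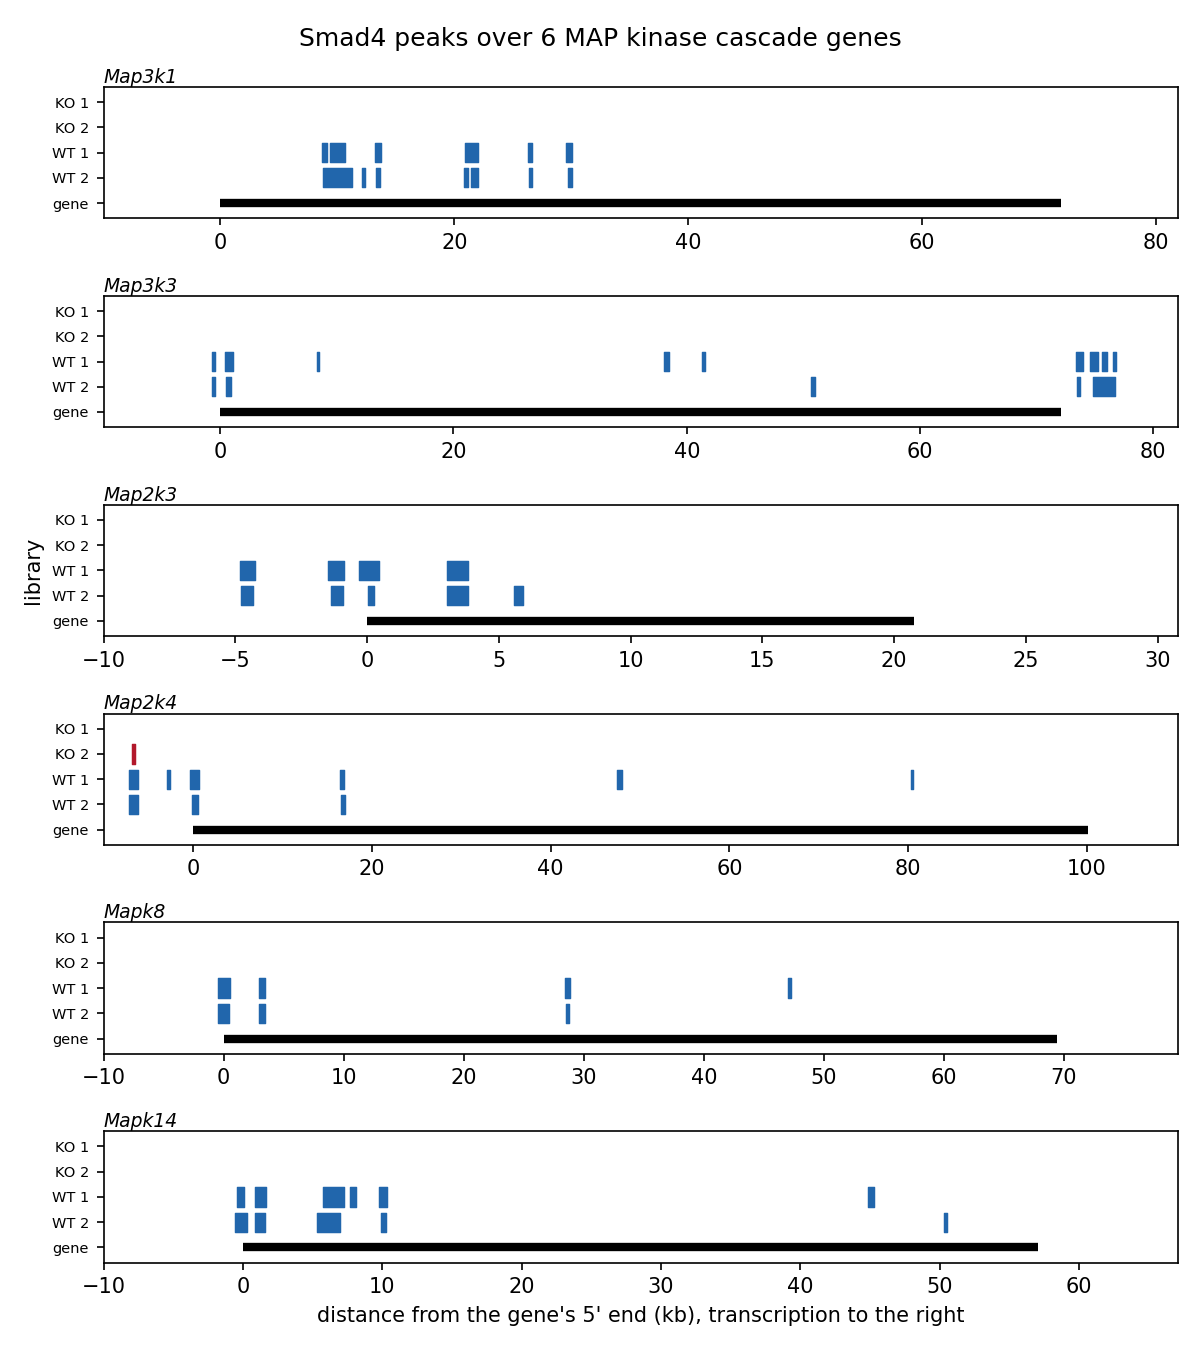
Peaks of the Smad4 ChIP in KO replicates 1 and 2 (red) and WT replicates 1 and 2 (blue) along 6 genes. They are drawn to scale with a thin outline that keeps narrow peaks visible. The x axis is the distance from the 5′ end of the gene bounds in kb and the y axis the library; black bars are the genes. The only KO peak drawn lies 6.47 kb upstream of Map2k4, and in Map3k1 the WT peaks begin well inside the gene bounds.

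Map3k7 had a single region, on its promoter (chromosome 4, 31963425 to 31964646), with 0 and 0 KO peaks and 1 WT peak in each library, of 1222 and 1112 bp. The rest of its 60.0 kb held no peak in any library. Map3k14, which encodes NIK, the kinase of non-canonical NF-κB signalling, had 0 and 0 KO peaks and 5 and 5 WT peaks. All 3 of its WT-only regions were centred within 4.75 kb of the start, the widest 1.97 kb downstream of the start (chromosome 11, 103264596 to 103266277; 1488 and 882 bp). Map3k8, which encodes TPL2, had 0 and 0 KO peaks and 3 and 2 WT peaks, with regions inside the gene (chromosome 18, 4335758 to 4336881; 1124 and 542 bp) and over an end (4352421 to 4353839; 932 and 1190 bp). Map3k2 had a region over its start coordinate (chromosome 18, 32162398 to 32163697, with peaks of 1300 and 762 bp). Another of its regions, 3.25 kb from the gene, met Ercc3. Map3k4 had one on its promoter (762 and 694 bp) and a broader one 42.7 kb downstream of the start (chromosome 17, 12275357 to 12276466; 1110 and 908 bp).

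The remaining MAP3K genes had little. Map3k12, which encodes DLK, a kinase known mainly from neurons, was called through a region 0.868 kb away that met the neighbour Tarbp2. Map3k13 had 1 narrow region of 300 and 310 bp. Map3k9 and Map3k19 had 0 and 0 KO peaks and 1 and 0 WT peaks each, Map3k10 had 0 and 0 KO peaks and 0 and 1 WT peaks, and Map3k11, which encodes MLK3, had 0 and 0 KO peaks and 1 and 2 WT peaks that did not meet each other. One of the peaks of Map3k11 in WT replicate 2, of 556 bp, lay at its start, so a single library called a gene end there.

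Every MAP2K branch was called. The ERK kinases Map2k1 and Map2k2 (MEK1 and MEK2) had promoter regions of 910 and 844 bp (chromosome 9, 64253066 to 64254083) and of 458 and 488 bp (chromosome 10, 81105815 to 81106347) in WT replicates 1 and 2, with no peak in either KO library. Of the p38 kinases, Map2k3 had 0 and 0 KO peaks and 4 and 5 WT peaks, and its 4 regions were centred between -4.53 and 3.44 kb from the start. The widest of them lay farthest downstream (chromosome 11, 60935102 to 60935897; 796 and 788 bp). Map2k6, the other p38 kinase gene, had 0 and 0 KO peaks and 3 and 1 WT peaks, which gave 1 region of 304 and 242 bp, 15.3 kb downstream of its start. The peak in WT replicate 2 has the smallest width of that list.

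Of the JNK kinases, Map2k7 had 0 and 0 KO peaks and 2 and 2 WT peaks. One of each lay on the promoter printed above (chromosome 8, 4238422 to 4239475, with peaks of 1054 and 838 bp). The other lay in a region 4.87 kb away that met Snapc2. Map2k4 (MKK4) was the only member with a KO peak. KO replicate 1 had none and KO replicate 2 had 1, of 292 bp (chromosome 11, 65794830 to 65795121), against 6 in WT replicate 1 and 3 in WT replicate 2. The KO peak lay 6.47 kb upstream of the gene within a WT region of 1024 and 950 bp (65794488 to 65795511), the widest reproducible region in that territory. The Map2k4 promoter (65787650 to 65788647; 998 and 618 bp) and an intragenic site (430 and 448 bp) were WT-only. Over all protein-coding genes 2.42% had a region of a KO list in their territory, and 1 of 43 members is close to that share. Map2k5, which encodes the ERK5 kinase MEK5, had 1 region, of 540 and 430 bp, on its annotated promoter window (chromosome 9, 63377604 to 63378170).

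Within the MAPK tier, genes of the ERK, JNK and p38 branches were called. Mapk3, a gene of only 6.19 kb that encodes ERK1, had 0 and 0 KO peaks and 1 and 1 WT peaks, of 436 and 440 bp (chromosome 7, 126759177 to 126759641). Of the JNK genes, Mapk8 (JNK1) had 3 WT-only regions and Mapk9 (JNK2) had 1, each with a promoter region. That of Mapk8 measured 1010 and 910 bp (chromosome 14, 33446848 to 33447857) and that of Mapk9 902 and 1092 bp (chromosome 11, 49846167 to 49847314). Mapk10 encodes JNK3, known mainly from brain. With 304 kb it is the longest member, and it had no peak in any library.

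Mapk14, which encodes p38α, had 0 and 0 KO peaks and 6 and 5 WT peaks. It held 4 WT-only regions, each centred within 8.8 kb of the nearest of its annotated starts. Regions lay on both of its promoter windows (chromosome 17, 28690742 to 28691609, 494 and 868 bp, and 28692185 to 28693002, 818 and 714 bp). The first of these also met Slc26a8. The widest lay 5.08 kb downstream of the nearest start (28696678 to 28698609; 1536 and 1660 bp). Its neighbour Mapk13 (p38δ), downstream on the same strand, had no peak in any library. The other p38 pair, Mapk11 and Mapk12 on chromosome 15, shared the region on the Mapk11 promoter (89149045 to 89150140; 744 and 918 bp). Of the 3 further regions at Mapk12 (p38γ), 1 met the gene, near its 3′ end (494 and 528 bp), and the others met Hdac10. The Mapk12 promoter window had no region. Among the remaining MAPK genes Mapk6, which encodes the atypical kinase ERK3, had a wide region over its promoter windows (chromosome 9, 75409356 to 75410877; 1522 and 944 bp). Mapk4, Mapk7 and Mapk15 had no peak in any library, so of the ERK5 branch Map2k5 had a region and Mapk7, the gene of ERK5 itself, had none.

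In all 8 members had no WT peak: Map3k6, Map3k15, Map3k21, Mapk4, Mapk7, Mapk10, Mapk13 and Mapk15. This is 8 of 43, against 44.2% of all protein-coding genes. Another 4 had a WT peak but no WT-only region. Map3k9, Map3k10 and Map3k19 had peaks in a single WT library, and the peaks of Map3k11 did not meet between libraries. At the upper end 7 of 43 members had 4 or more WT-only regions, against 4.05% of all protein-coding genes; these were Map4k4, Map3k1, Map3k2, Map3k3, Map2k3, Mapk12 and Mapk14. Members were longer than other genes, with a median of 57.1 kb against 17.2 kb, and these counts are not matched for length.

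Peak widths in the 77 WT-only regions were close to those over all WT-only regions. The median was 624 bp in WT replicate 1 and 498 bp in WT replicate 2, against 580 and 492 bp over all 15882 WT-only regions. By summed width 8 of the 77 (10.4%) were wider than 2334 bp, which 10% of all WT-only regions exceed. The peak was wider in WT replicate 1 in 57 regions and in WT replicate 2 in 20, a share of 74.0% for WT replicate 1, against 67.4% over all WT-only regions. Between the WT libraries, widths correlated with a Spearman rho of 0.778 over the 77 regions and 0.727 over all WT-only regions; regions of 1 gene and of 1 library are not independent. In WT replicate 2 10 of the 77 peaks, and in WT replicate 1 2, had the minimum width found in that list.

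**Figure D4:**
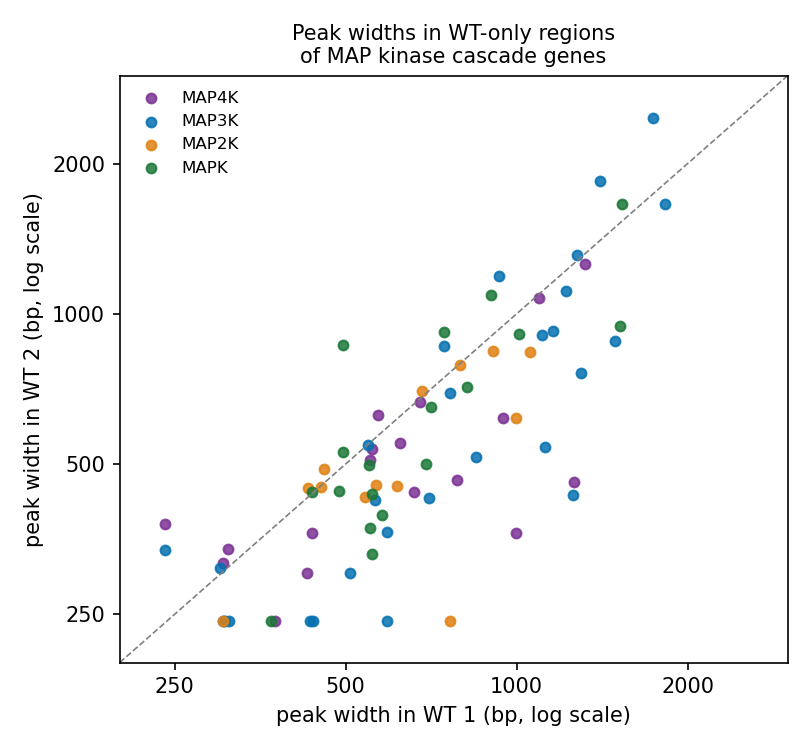
Peak width in WT replicate 1 (x axis) and WT replicate 2 (y axis), in bp on log scales, for the 77 WT-only regions, coloured by tier; the dashed line marks equal widths. In 57 regions the point lies below the line, and a row of points at 242 bp marks the smallest width of WT replicate 2.

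Most other genes of the pathway also had a region. Of 69 upstream regulators, scaffolds and substrates found in the gene table, 59 (85.5%) had a WT-only region, against 44.3% of all protein-coding genes; genes in the length groups of the 4 lists had one in 48.2% to 51.6% of cases. The only regions of Mknk1, Mapk8ip3, Lamtor2 and Atf2 lay outside the gene, 9.34, 1.85, 0.554 and 0.035 kb away. The widest regions of Grb2, Rac2, Cdc42, Taok2, Lamtor3, Rps6ka1 and Mapkapk3 also lay outside the gene. The genes named with widths were picked from each list for their wide regions. GTPases, exchange factors and their regulators had one in 19 of 22 cases, led by Rasa3, a GTPase activator (chromosome 8, 13674184 to 13677932; 3422 and 2946 bp), and Spred2, an inhibitor of RAF activation (chromosome 11, 19923819 to 19926419; 2452 and 2194 bp). RAF and other kinases at the MAP3K and MAP4K levels had one in 8 of 9, among them Mink1, a kinase of the STE20 family (1220 and 452 bp). Scaffolds and TAK1 partners had one in 16 of 20, led by Gadd45g, an activator of MEKK4 (chromosome 13, 51844681 to 51849458; 4516 and 3682 bp), and Tab2, the adaptor of TAK1 (chromosome 10, 7953633 to 7957269; 3600 and 2348 bp). Substrates had one in 16 of 18, led by Elk3, an ETS factor (2572 and 2484 bp), and Mknk2, a kinase of translation factors (2694 and 2198 bp). A KO library had a region at 5 of the 69 genes (7.25%, against 2.42% of all protein-coding genes): Araf, Gadd45b, Elk4, Mef2c and Rps6ka1.

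How far such shares follow gene activity was not tested, since expression was not analysed here. Among marker genes all 8 T cell markers had a WT-only region, against 2 of 7 B cell markers (Cd79a and Pax5), 1 of 7 myeloid markers (Fcgr1), 1 of 2 NK cell markers (Klrb1c) and neither of the 2 CD8 T cell markers (Cd8a and Cd8b1). The only regions of Fcgr1 and Klrb1c lay outside the gene, 4.23 and 9.9 kb away. The widest regions of the T cell markers Cd28, Lck and Cd5 also lay outside the gene, 2.98, 1.48 and 0.85 kb away. Cd3d and Cd3g shared their widest region (chromosome 9, 44979836 to 44982423), so the calls of the 8 T cell markers are not all separate. The shares in the length groups of these short lists were 49.3% for T cell, 45.1% for B cell, 46.7% for myeloid, 44.9% for NK cell and 44.1% for CD8 T cell markers, and differences between lists were not tested. Cd247, a T cell marker, had a peak in KO replicate 1 and in KO replicate 2, and Cd8b1 had one in KO replicate 1. Peaks do not show whether a marker is expressed or which cells were present.

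Beyond the territories, KO peaks stood within 50 kb of 3 further members. Map4k3 had a peak of 456 bp in KO replicate 1 and of 372 bp in KO replicate 2, 43.6 and 43.7 kb away (chromosome 17, 80772442 to 80772897 and 80772478 to 80772849). Map3k8 had 1 in KO replicate 1, of 318 bp, 27.9 kb away. Those near Map3k4, of 254 and 462 bp in KO replicate 1 and of 356 and 352 bp in KO replicate 2, were closer to Agpat4 and Plg. Each of these KO peaks met a reproducible WT region.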

How the data were processed

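The authors deposited 1 list of peak positions (chromosome, start, end) for each ChIP library, without height, score or p-value, and without pooling replicates. HOMER 4.8.3, Bowtie, Trim Galore and the build mm10 stand in the submitters' processing notes, without roles; thresholds, filters and read depth are not stated there. The 4 input samples were not analysed here. More reads or a looser threshold would also give more peaks.

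Positions were made 1-based. Peaks meeting by 1 bp were merged. Genes came from RefSeq on GRCm38.p6 (21775 of 21896 protein-coding genes; those starting below 3 Mb, other than on Y, were left out, as scaffold coordinates stand there). Strands and starts came from the RefSeq promoter table. A gene end was met when a region overlapped 1 kb on either side of it. All protein-coding genes were split by length into 10 groups, and each member took the share of its group. Shares have exact 95% Clopper-Pearson bounds, and for a library with 0 peaks the limit of 3 counts is given as well; both cover counting error only. Peak numbers were compared by a 2-sided exact permutation test. Counting was tested on simulated data.

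Members, lists and tests were chosen with earlier results of these data known. The rule for named genes took 18 listed kinases, the 4 members per tier with the widest region, the 10 with the most regions, those with a KO peak or no WT peak, and 2 genes per pathway list; others, and the 6 printed promoters, were chosen after their values were seen. A few items that the rule names are not reported here. The listed scaffold symbol Mapk8ip4 was not matched. Alternatives covered territories, overlap, width, KO distance and each library left out. Peak lists hold no score, so the wider peaks, from the median width up, stood in for a stricter threshold. Python 3.11.15, numpy 2.4.6, pandas 2.3.3, SciPy 1.17.1 and matplotlib 3.10.9 were used.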

Additional observations from a re-analysis of the deposited data

How the results depend on the processing

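The number of members with a WT-only region stayed between 24 and 36 over 13 alternatives, and the number with one at a gene end between 19 and 29 over 9, all within 1.5 times of 31 and 26. Apart from WT-only regions inside genes, shares of other genes were not computed under these alternatives, for WT-only or KO regions. The counts therefore do not show whether the difference from other genes holds under each. Regions that meet no other protein-coding gene, an alternative chosen after seeing the data, left 28 members and 66 regions. The 77 WT-only regions became 133 with flanks of 50 kb, 29 within 1 kb and 45 within 5 kb of a gene end, and 42 with the wider regions only, each a change in the sequence searched or the regions kept; leaving out a library gave 77 to 120, the highest without WT replicate 2, when a single WT list defines a region. The 1 member with a KO region became 4 with flanks of 50 kb and 3 by nearest gene. It became 0 in gene bodies, within 1 kb and within 5 kb of a gene end, and with the wider KO regions, and leaving out a library gave 0 to 1, with 0 without KO replicate 2, which holds the only peak. The rules on overlap of WT peaks and on distance to KO peaks do not enter that count. KO lay below WT under all 11 alternatives, from -3.56 for covered bases to -0.49 for peaks per 1000 of the list (log10, KO minus WT). In each setting 1 was added before the log. Where a KO value was 0 the size therefore depends on the unit, and sizes in unlike units cannot be ranked. Only the setting per 1000 peaks took the shorter KO lists into account. The other settings cannot tell fewer peaks at these genes from shorter lists. Per 1000 peaks, KO replicates 1 and 2 had 0 and 2.36, resting on 0 and 1 peaks, against 4.46 and 4.90 in WT replicates 1 and 2. With replicate numbers as a block the difference was -1.89 (exact permutation p = 0.5, the smallest for 2 pairs); nothing in the labels says that equal numbers share an animal or day. Unknown read depth limits every count.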
